A study of Mus musculus with 8 samples.

Results

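This report describes 10 genes that restrain Wnt signaling or are switched on by it (Wif1, Sostdc1, Sfrp1, Dkk3, Rnf43, Nkd1, Nkd2, Axin2, Lef1 and Tcf7), out of 38293 genes listed in the bulk count tables. They were chosen by role with their values in these same control and SOX4KO libraries already known, so their levels and fold changes are a description and carry no test. The libraries came from mammary tumor organoids of MMTV-PyMT; MMTV-Cre; Ecadherin-mCFP mice, in which the MMTV promoter drives both the polyoma middle T oncogene and Cre in the mammary epithelium. All lines, controls included, carry these transgenes and were cultured for 4 days in medium with FGF2 and B27. Bulk RNA was sequenced from 2 control lines (WT1 and WT3) and 3 lines with Sox4 disrupted by CRISPR/Cas9 (H7, M4 and H4), and sorted single cells from 1 control library (GR17) and 2 SOX4KO libraries (GR18 and GR19). A line is 1 clone and a replicate is a line, so what a clone happened to carry beside the Sox4 lesion counts as spread between lines, and the labels do not tie GR17, GR18 or GR19 to a bulk line.

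Wnt ligands bind a Frizzled receptor together with an LRP co-receptor, which stops the Axin complex from destroying β-catenin and lets β-catenin join TCF/LEF factors on DNA. Secreted antagonists such as WIF1, SFRP1 and SOSTDC1 act outside the cell by binding ligands or co-receptors, RNF43 takes Frizzled off the cell surface, and NKD and Axin proteins dampen the signal inside the cell. Axin2, Nkd1 and Rnf43 are themselves switched on by the pathway and serve as its feedback, and in the mammary gland Wnt signaling sustains basal and progenitor cells.

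The sequence before the start of 3 of these genes is shown because Wif1 and Nkd2 were lower in SOX4KO in both assays and Axin2, the usual reporter of the pathway, was not counted in bulk. RefSeq promoters on GRCm38.p6 matched 7 of the 10 genes, with 12 start sites in all. Each sequence runs 5′ to 3′ on the gene's strand and is the part of the 250 bases before the RefSeq start that lies outside the annotated gene, and capitals mark CTTTG, a core shared by TCF/LEF and SOX sites.
Wif1, chr10:121033754-121033959, plus strand: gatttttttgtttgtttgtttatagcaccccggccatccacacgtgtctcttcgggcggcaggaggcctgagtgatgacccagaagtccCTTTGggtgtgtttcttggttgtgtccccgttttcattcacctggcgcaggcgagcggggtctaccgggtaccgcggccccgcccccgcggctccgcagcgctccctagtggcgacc
Nkd2, chr13:73847632-73847881, minus strand: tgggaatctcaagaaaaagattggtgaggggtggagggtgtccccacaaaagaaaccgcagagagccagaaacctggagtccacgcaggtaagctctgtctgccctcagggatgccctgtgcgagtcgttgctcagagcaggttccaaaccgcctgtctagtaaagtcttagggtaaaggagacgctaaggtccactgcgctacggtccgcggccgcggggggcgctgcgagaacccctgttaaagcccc
Axin2, chr11:108920099-108920348, plus strand: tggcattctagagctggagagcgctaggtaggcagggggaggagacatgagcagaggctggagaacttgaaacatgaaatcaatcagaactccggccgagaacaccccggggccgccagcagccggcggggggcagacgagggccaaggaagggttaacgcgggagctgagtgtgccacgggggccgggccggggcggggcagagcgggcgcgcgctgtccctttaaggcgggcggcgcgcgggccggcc
Searched on both strands over the 250 bases, the TCF/LEF motif CTTTGAT was in 0 of the 12 windows and in 3.21% of all 32851 promoters. The motif CTTTGTT, bound by SOX and TCF/LEF factors, was in 0 of 12 against 5.03% of all promoters. The SOX core ATTGT was in 1 of 12, at a start site of Lef1, against 27.7%. The shorter core CTTTG, which lies within both longer TCF/LEF motifs and was searched after the data were seen, was in 5 of 12 windows against 48.6% of all promoters. The windows with CTTTG were that of Wif1 and those at start sites of Lef1, which include overlapping windows, so windows are not separate genes. A match is a run of letters and not a measured binding site.

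Between 3050323 and 4678497 reads per bulk library fell on genes, and the single-cell libraries held 7714119 to 8296953 UMIs over 362 to 369 wells kept of 384, with a median of 19845 to 21876 UMIs per cell. The wells of the 3 plates carry the same 384 numbers, so a number does not identify a cell across libraries. Levels are given in CPM, the count scaled by the normalized library total. Sox4 transcript, the target of the knockout, was at 295 CPM (WT1) and 374 (WT3) against 199 (H7), 179 (M4) and 299 (H4), and at 118 CPM in GR17, 82.5 in GR18 and 110 in GR19, so the groups overlapped in bulk and the transcript was still present. These levels do not measure the protein. The paper reported bi-allelic indels, and no SOX4 protein by western blotting, in the SOX4KO lines it first selected. Of the markers of other cell types, Cdh5, Kdr, Adgre1, Csf1r, Cd3e, Adipoq, Col1a2 and Lum had 0 UMIs in all 3 single-cell libraries, and in bulk Col1a2 did not exceed 2.33 CPM. The immune marker Cd68 was at 1.81 and 1.39 CPM in the control lines against 14.1 (H7), 3.60 (M4) and 2.16 (H4). It was not called (log2 fold change 2.05). In GR17, GR18 and GR19 the immune list summed to 2.33, 2.25 and 2.29 CPM, and the endothelial list to 3.76, 2.50 and 2.41 CPM. Other genes of the fibroblast list were counted. Postn reached 4786 CPM in bulk and 33.1 CPM in the single-cell libraries, and Pdgfra lay between 41.4 and 99.8 CPM in bulk. Col1a1 was at 219 and 97.6 CPM in the control lines against 48.3 to 71.3 CPM in the SOX4KO lines and was called lower (log2 fold change −1.39), the 1 fibroblast marker called of 5 tested, with 52, 36 and 23 UMIs in GR17, GR18 and GR19. Over all genes tested in bulk, 4.1% were called higher in SOX4KO and 2.17% lower. Of the basal markers tested 5 of 11 were called higher (Oxtr, Sparc, Jag2, Snai2 and Vim) and 0 lower. Trp63 and Mylk were higher in every SOX4KO line but not called, and the groups of Krt5, Krt14, Krt15 and Krt17 overlapped. The summed level of the basal list was 1516 to 2286 CPM in control and 2842 to 7703 CPM in SOX4KO lines. Sparc alone gave up to 5342 CPM of it (M4). In the single-cell libraries the basal sum was 5093 CPM in GR17, 5346 in GR18 and 3069 in GR19. Of the luminal markers tested in bulk 0 of 13 were called higher and 1 lower (median of −0.51 on the log2 scale), with a summed level of 5196 to 5270 CPM in control and 5538 to 10600 CPM in SOX4KO lines. Lcn2 was the largest part of this sum, at 2166.5 and 2173.7 CPM in control lines against 3156 (H7), 3146 (M4) and 5891 (H4). In H4 Csn3 added 2287 CPM. Krt18, Krt19, Epcam, Kit, Cited1 and Cldn3 were lower in every SOX4KO line than in both control lines. Lcn2 was higher in every one, and the groups of the other tested luminal markers overlapped. The single-cell sum of the luminal list was 4263 CPM in GR17, 7836 in GR18 and 9841 in GR19. Lcn2 alone was at 1982 to 11889 CPM across the clusters described below. Of the cycling markers 10 of 14 were called lower, from 872 to 892 CPM in control to 394 to 582 CPM in SOX4KO lines. The part of these shifts in the values below was not tested, and in bulk libraries fewer cells of a type and less RNA per cell cannot be told apart.

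**Figure D1:**
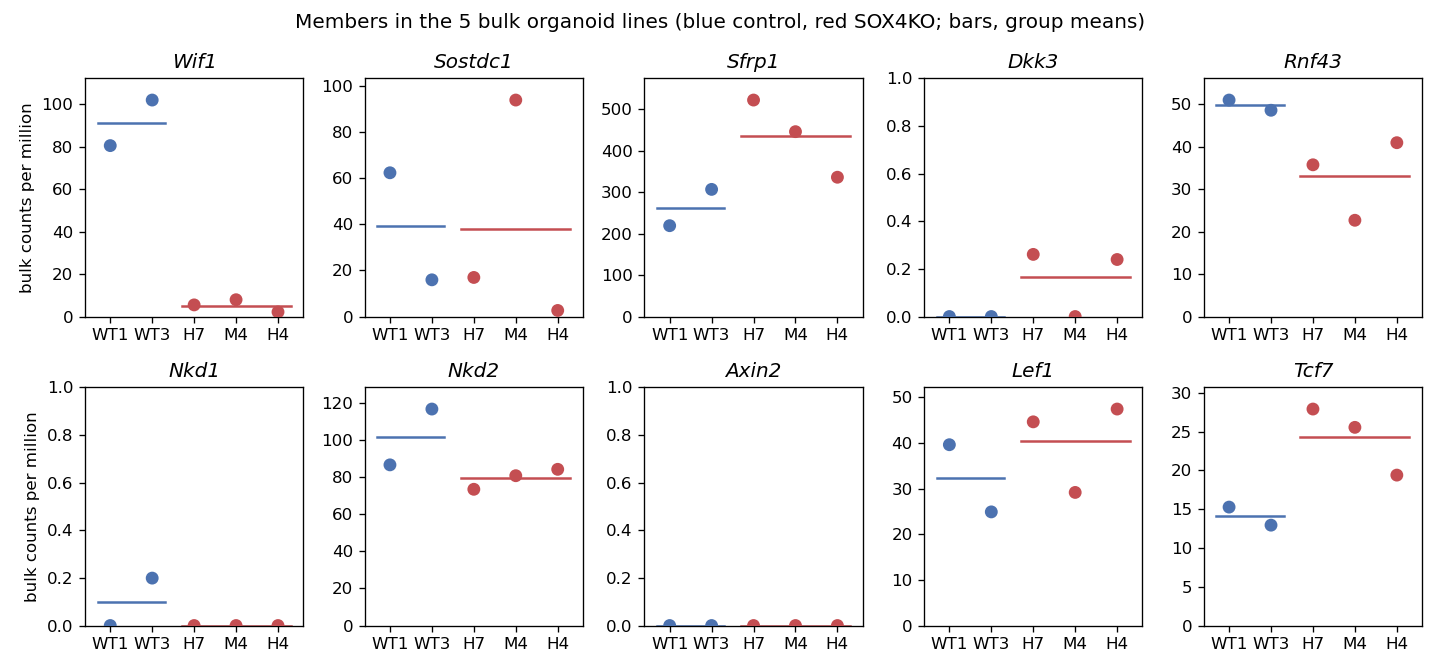
CPM (TMM-normalized) of the 10 genes in each bulk line, with a separate linear axis for each gene, control lines in blue, SOX4KO lines in red and a bar at each group mean. Wif1 lies between 2.16 and 7.92 CPM in the SOX4KO lines and between 80.5 and 102 CPM in the control lines, while Sostdc1 spreads across both groups and Axin2 is at 0 in all 5 lines.

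Wif1 (ENSMUSG00000020218), a secreted protein that binds Wnt ligands, lay far lower in every SOX4KO line. The gene is on the plus strand of chromosome 10, from 121033960 to 121100650 in GRCm38. It was at 80.5 CPM (WT1) and 102 (WT3) against 5.48 (H7), 7.92 (M4) and 2.16 (H4). Control lines averaged 91.2 ± 15.2 CPM (SD, n = 2) and SOX4KO lines 5.18 ± 2.89 CPM (SD, n = 3), a log2 fold change of −4.19, with a standard error (SE) of 0.37. The groups did not overlap and were far apart relative to the spread within them. Without any 1 of the lines the log2 fold change ran from −4.59 to −3.78.

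Sostdc1 (ENSMUSG00000036169) encodes a secreted antagonist of Wnt and BMP signaling. Its level differed more between lines of one genotype than between the genotypes. It was at 62.4 CPM (WT1), 15.9 (WT3), 17.0 (H7), 93.9 (M4) and 2.63 (H4), so that both the highest and the lowest line were SOX4KO. The log2 fold change was −0.08 (SE 1.06) and ran from −2.00 to 1.21 as single lines were left out.

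Sfrp1 (ENSMUSG00000031548), a soluble Frizzled-like protein that captures Wnt ligands, was higher in all SOX4KO lines. It was at 219 CPM (WT1) and 306 (WT3) against 522 (H7), 446 (M4) and 336 (H4). The groups did not overlap, although H4 lay close to WT3. The group means were 263 ± 61.9 CPM (SD, n = 2) and 434 ± 93.5 CPM (SD, n = 3), a log2 fold change of 0.72 (SE 0.25). Dkk3, a distant relative of the Dickkopf inhibitors, had 1 count each in the lines H7 and H4 and none in WT1, WT3 and M4, which is under the floor of 3 counts.

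Among the inhibitors at the membrane and inside the cell, Rnf43 (ENSMUSG00000034177) was at 51.0 CPM (WT1) and 48.6 (WT3) against 35.7 (H7), 22.7 (M4) and 41.0 (H4). All SOX4KO lines lay below the controls, with a log2 fold change of −0.58 (SE 0.25). Nkd2 (ENSMUSG00000021567), which binds Dishevelled, was at 86.5 CPM (WT1) and 117 (WT3) against 73.3 (H7), 80.6 (M4) and 84.1 (H4). The groups of Nkd2 were apart by a narrow margin between H4 and WT1, with a log2 fold change of −0.36 (SE 0.19) that lay between −0.55 and −0.12 with lines left out. Its paralog Nkd1 had 1 count in WT3 and 0 in the other lines. Axin2, a scaffold of the β-catenin destruction complex, had 0 counts in all 5 lines, where the floor of 3 counts lies between 0.597 and 1.08 CPM. For Axin2 and Nkd1 a difference was therefore not detectable at this depth.

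The TCF/LEF factors that carry β-catenin to its target genes were both counted. Tcf7 (ENSMUSG00000000782) was at 15.3 CPM (WT1) and 12.9 (WT3) against 27.9 (H7), 25.6 (M4) and 19.4 (H4). Its groups did not overlap, and the log2 fold change was 0.78 (SE 0.25). Lef1 (ENSMUSG00000027985) was at 39.6 CPM (WT1), 24.9 (WT3), 44.6 (H7), 29.2 (M4) and 47.4 (H4), with overlapping groups and a log2 fold change of 0.34 (SE 0.28).

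Of the 10 genes, 7 passed edgeR's filter on low counts and 1 of these (Wif1) was called at an adjusted p under 0.1, where 6.27% of all 11682 genes tested were called. Since the genes were chosen on this contrast nothing is read from that share. The lines of the 2 groups did not overlap for 5 of the 7, 2 higher and 3 lower in SOX4KO, against 36.9% of all genes tested.

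Levels of different genes were compared per kilobase of exon, as CPM per kb. In the control lines the order of the means was Sfrp1 (60.1), Wif1 (37.6), Sostdc1 (22.0), Nkd2 (21.0), Rnf43 (7.59), Tcf7 (5.37) and Lef1 (3.67). Sostdc1 ranged from 8.94 to 35.0 between the control lines, so it could not be ordered against Wif1 or Nkd2. In the SOX4KO lines Sfrp1 again had the highest mean, at 99.4, followed by Sostdc1 (21.3), Nkd2 (16.4), Tcf7 (9.25), Rnf43 (5.05), Lef1 (4.60) and Wif1 (2.14). The place of Sostdc1 rested on M4, since it was at 52.8 CPM per kb there against 9.52 in H7 and 1.48 in H4. Wif1 thus had the second highest mean in the control lines and the lowest of the 7 in the SOX4KO lines.

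**Figure D2:**
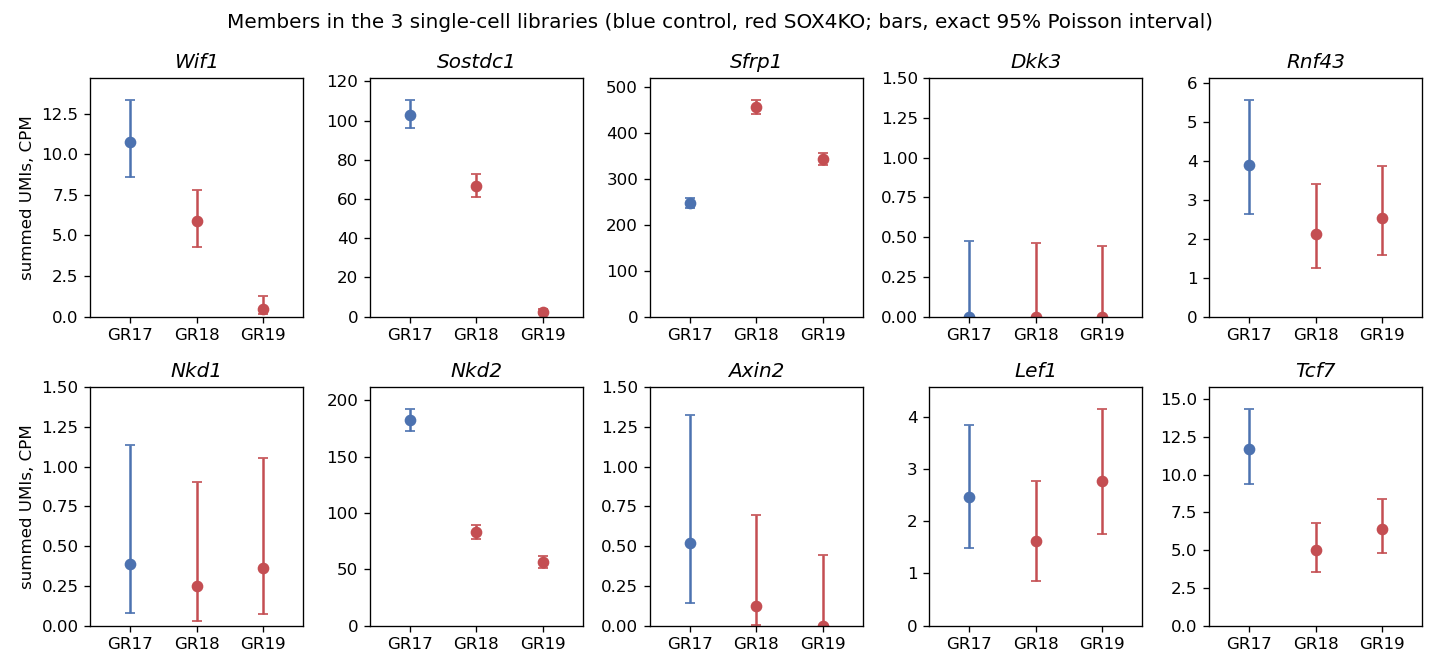
UMIs of the 10 genes summed over the cells of each library and scaled to CPM, with separate linear axes, the control library in blue, the SOX4KO libraries in red and bars for the exact 95% Poisson interval, which covers counting error only. Nkd2 is at 183 CPM in GR17 against 83.0 and 56.5 CPM in GR18 and GR19, and Sfrp1 is above GR17 in both SOX4KO libraries.

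In the single-cell libraries UMIs were summed per library, and no test was run on these sums, which hold 1 control library. Wif1 had 83 UMIs in GR17, 47 in GR18 and 4 in GR19. This corresponds to 10.8 CPM (95% exact Poisson interval 8.57 to 13.3), 5.87 CPM (4.31 to 7.80) and 0.482 CPM (0.131 to 1.23), so both SOX4KO libraries lay below the control library and GR19 far below GR18. With 1 CPM added, the log2 ratios to GR17 were −0.78 for GR18, smaller in size than the bulk fold change, and −2.99 for GR19. The level in GR19 was under the 1 CPM added, which shrinks its ratio, so its size cannot be compared with the bulk fold change. With 10 CPM added in place of 1 the ratios were −0.39 and −0.99. Wif1 was carried by few cells, with a UMI in 34 of 369 cells of GR17, 13 of 369 in GR18 and 3 of 362 in GR19. A single cell held up to 14 of its UMIs in GR17 and 13 in GR18. In cells thinned to 10000 UMIs each, which left out 35, 39 and 20 shallower cells, the share with a Wif1 UMI was 6.59%, 2.73% and 0.585%, against 9.21%, 3.52% and 0.829% without thinning.

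Sostdc1 again separated the SOX4KO libraries from each other. It was at 103 CPM (96.0 to 110) for GR17, 66.8 CPM (61.3 to 72.7) for GR18 and 2.41 CPM (1.47 to 3.72) for GR19. The log2 ratio to GR17 was −0.62 for GR18 and −4.93 for GR19, the latter from 20 UMIs in 6 cells.

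Sfrp1 was at 247 CPM (236 to 258) for GR17, 457 CPM (443 to 472) for GR18 and 343 CPM (331 to 356) for GR19. As in bulk it was higher in both SOX4KO libraries, with log2 ratios of 0.89 and 0.47. It was also the most widely counted of the 10 genes, with a UMI in 92.4%, 96.7% and 93.6% of cells. Nkd2 was at 183 CPM (173 to 192) for GR17, 83.0 CPM (76.8 to 89.6) for GR18 and 56.5 CPM (51.5 to 61.9) for GR19. These are log2 ratios of −1.13 and −1.67, larger than the bulk fold change. The share of thinned cells with an Nkd2 UMI was 76.9% in GR17, 46.1% in GR18 and 39.8% in GR19, against 85.6%, 62.1% and 58.0% without thinning.

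Tcf7 was at 11.7 CPM (9.38 to 14.3) for GR17, 4.99 CPM (3.57 to 6.80) for GR18 and 6.39 CPM (4.79 to 8.36) for GR19. It was thus lower in both SOX4KO libraries, the opposite of its direction in the bulk lines. Rnf43 had 30, 17 and 21 UMIs and Lef1 19, 13 and 23 UMIs in GR17, GR18 and GR19, with overlapping intervals for both genes. Nkd1 had 3, 2 and 3 UMIs, Axin2 had 4, 1 and 0, and Dkk3 had 0 in every library. Of the 3 members with at least 20 CPM on average (Sostdc1, Sfrp1 and Nkd2), 1 was at least 2-fold lower in both SOX4KO libraries, where 0.317% of 6303 genes were lower, 1.92% were higher and 2.24% were past 2-fold in either direction. Mitochondrial genes took 11.4%, 12.5% and 15.1% of the UMIs of GR17, GR18 and GR19. With these genes and Rn45s left out of the total, the log2 ratios of GR19 were −1.59 for Nkd2, 0.56 for Sfrp1 and −0.72 for Tcf7. For Wif1 and Sostdc1 they were −3.11 and −4.94. Effects of this difference other than on the total were not tested.

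The level of several of the genes differed between clusters of cells. The cells formed 7 clusters, made without the 10 genes. Each marker was set relative to its mean log2 level over the clusters, leaving out markers of low level. On that relative scale the median luminal marker exceeded the median basal marker by more than 2 in clusters C and E. This does not say that luminal markers exceeded basal markers in level. C was led by Cxcl2, Efr3b and Itgam, with the milk genes Csn3 and Ltf among its first 10, and E by 1600029D21Rik, S100a8 and Wfdc18. These clusters are called luminal-like, a cutoff chosen after the data were seen, and held 51 of 369 cells in GR17, 107 of 369 in GR18 and 131 of 362 in GR19. Most other cells of GR17 were in clusters B (207 cells) and F (102), which held 4 and 7 cells of GR18, so clusters other than C and E were largely those of 1 genotype, and genotype, line and library cannot be told apart there. Values by cluster are a description, since clusters were built on the same cells.

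**Figure D3:**
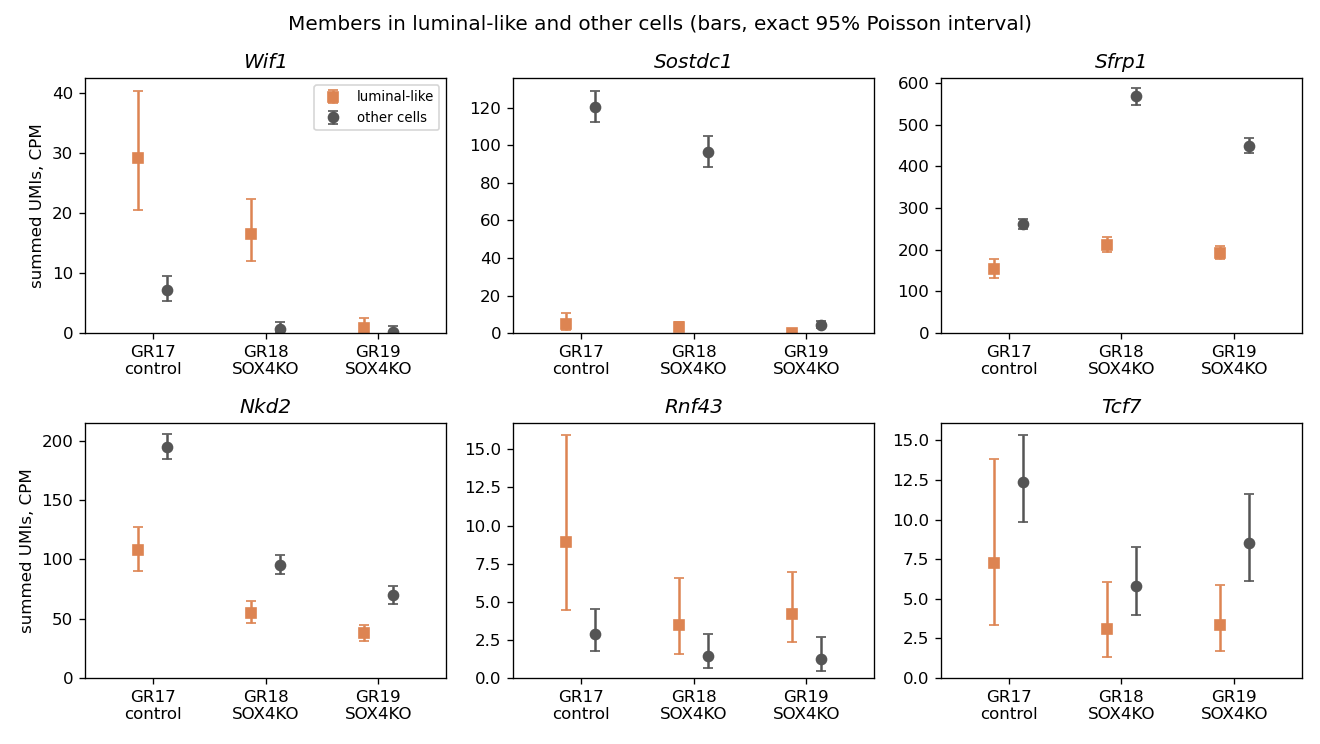
CPM of summed UMIs in luminal-like cells (orange squares) and other cells (grey circles) of each library for 6 of the genes, on separate linear axes, with bars for the exact 95% Poisson interval. Wif1 is higher in the luminal-like cells of GR17 and GR18, while Sostdc1 and Sfrp1 are higher in the other cells of all 3 libraries.

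Wif1 had a higher level in the luminal-like cells of GR17 and GR18, carried by few cells. In GR17 it was at 29.1 CPM in luminal-like cells (20.4 to 40.3) and 7.18 CPM in other cells (5.27 to 9.54), which held 47 of its 83 UMIs. A Wif1 UMI was found in 11.8% of luminal-like and 8.81% of other cells of GR17. The luminal-like value of GR17 came mostly from the cells of cluster E, since cluster C, with 36 of the 51 luminal-like cells, held 6 of the 36 UMIs (6.12 CPM) and cluster B was at 9.02 CPM. It also moved with the clustering, to 59.9 CPM at a resolution of 0.3 and to 87.8 CPM with 20 principal components, as the class shrank to 26 and 21 cells. In GR18 it was at 16.5 CPM (12.0 to 22.2) and 0.731 CPM (0.199 to 1.87), and 43 of its 47 UMIs lay in luminal-like cells. In GR19 only 4 UMIs were counted, 3 of them in luminal-like cells. Wif1 was lower in the other cells of both SOX4KO libraries than in those of GR17. These cells are not matched, since those of GR17 were mostly in clusters B and F and those of GR18 and GR19 mostly in A, D and G. The share of luminal-like cells was larger in both SOX4KO libraries, and the part of cell composition in the Wif1 values was not tested. In cluster C alone Wif1 was at 10.2 CPM in GR18 (5.55 to 17.0), not below GR17. Cluster E held 63 of the 107 luminal-like cells of GR18.

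Sostdc1 had the reverse pattern. It was at 120 CPM in the other cells of GR17 against 4.86 CPM in luminal-like cells, and at 96.2 against 3.07 CPM in GR18. A Sostdc1 UMI was found in 58.2% of other cells and 11.8% of luminal-like cells of GR17, and in 53.8% and 7.48% of GR18, with a median depth of 28800 UMIs in cluster C and 20088 in E against 15302 to 24200 in the others. By cluster it was at 133 CPM in B and 76.1 in F of GR17, and at 155 in A, 77.4 in D and 45.5 in G of GR18. In GR19 cluster A, which had 155 CPM in GR18, had 11.1 CPM, and cluster D had 0 UMIs. The lower level in GR19 was thus present within clusters that held cells of both SOX4KO libraries.

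Sfrp1 was at 262 CPM in other cells and 154 in luminal-like cells of GR17, at 568 and 212 in GR18, and at 450 and 193 in GR19. The difference between the libraries was therefore larger in other cells than in luminal-like cells. Nkd2 was at 195 and 108 CPM in GR17, 95.3 and 54.9 in GR18, and 69.8 and 37.6 in GR19. It was lower in the other cells of both SOX4KO libraries, with intervals that did not reach that of GR17, also with the alternative clusterings. In luminal-like cells the difference between GR17 and GR18 depended on the clustering, with 71.9 CPM (51.8 to 97.1) against 54.8 (46.1 to 64.6) at a resolution of 0.3, and 57.7 CPM (36.6 to 86.6) against 55.9 (46.8 to 66.2) with 20 principal components. Rnf43 and Tcf7 had at most 15 and 12 UMIs in the luminal-like cells of any library.

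Over cells of the same library, Pearson's r of log-normalized values between Sostdc1 and Sfrp1 was 0.24 in GR17 and 0.35 in GR18. All other pairs of Sostdc1, Sfrp1, Nkd2 and Tcf7 that could be compared were at or below 0.13. Among 9155 genes in the 369 control cells, the genes most like Sostdc1 were Sparc (r = 0.53), a matrix protein of basal cells, and Id4 (r = 0.49), a transcriptional inhibitor. Those most like Sfrp1 were Sparc (r = 0.37) and Fam101b (r = 0.31). For Nkd2 and Tcf7 no gene reached 0.3. Cells of a library share their plate and differ in depth, and these values carry no test.

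**Figure D4:**
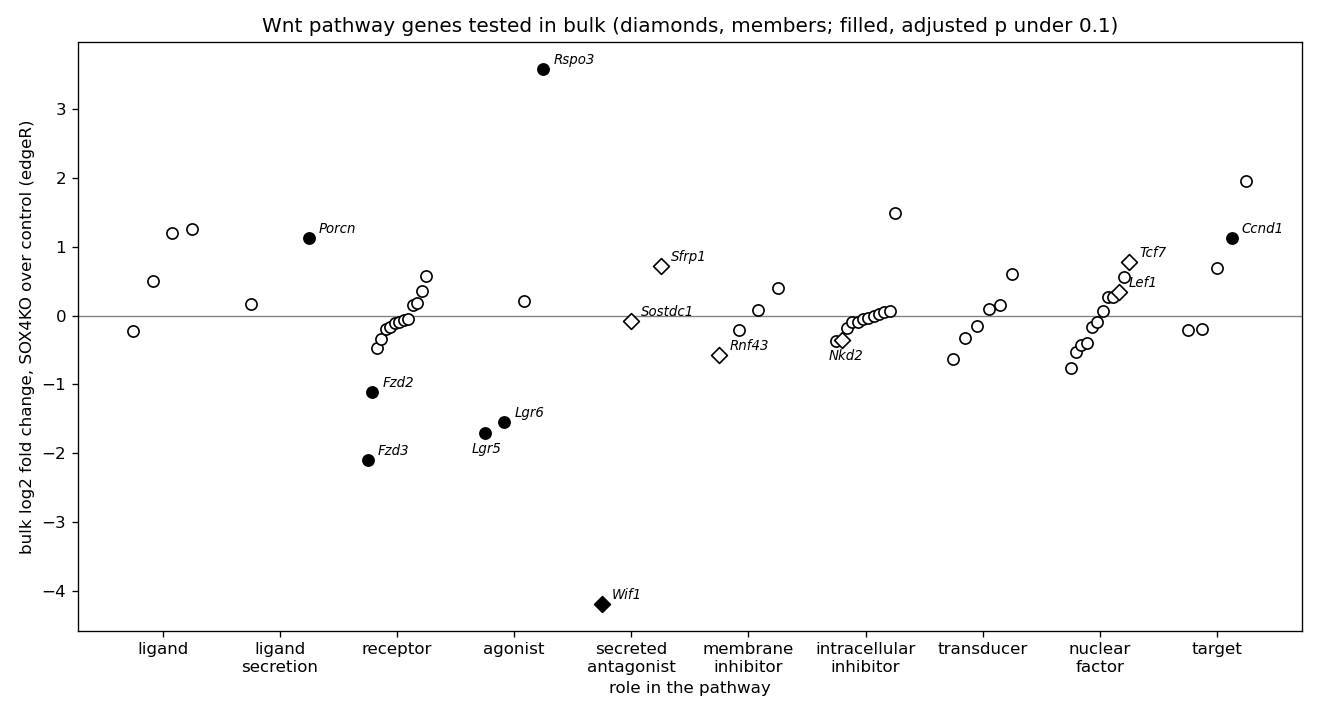
Log2 fold change (SOX4KO over control, edgeR) of the Wnt pathway genes tested in bulk, by role in the pathway. Each point is a gene, diamonds are the genes described here, circles the other genes of the pathway list, and filled symbols were called at an adjusted p under 0.1. Wif1 is the lowest point at −4.19 and Rspo3 the highest at 3.59.

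The rest of the pathway was read from a list of 96 other genes, of which 59 were tested in the same edgeR fit. Of these 3 were called higher and 4 lower, where the shares over the whole table were 4.1% higher and 2.17% lower. At an unadjusted p under 0.05 there were 9 higher and 6 lower of the 59, where 1216 were higher and 897 lower of all 11682 genes tested. The median log2 fold change was −0.05 over the 59 genes and 0.01 over all genes tested. Called were 3 of the 4 tested R-spondin and LGR genes, 2 of 14 tested receptors, 1 of 2 genes for ligand secretion and 1 of 5 tested targets. Without WT3 the calls were 0 and without WT1 there was 1 (Rspo3), while without H7, M4 or H4 there were 3 to 5 higher and 2 to 4 lower. No ligand (4 tested), membrane inhibitor (3), intracellular inhibitor (11), transducer (6) or nuclear factor (10) was called by edgeR. At an unadjusted p under 0.05 there were 2 ligands and 1 intracellular inhibitor higher, 1 transducer higher and 1 lower, and 1 nuclear factor lower, and DESeq2 called 1 transducer higher.

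The R-spondins are secreted proteins that bind LGR receptors and hold off RNF43. Rspo3 rose in SOX4KO, from 2.85 CPM (WT1) and 0.398 (WT3) to 15.9 (H7), 29.9 (M4) and 10.5 (H4) (log2 fold change 3.59 with an SE of 0.72, and adjusted p = 0.0418 by edgeR). Of its receptors Lgr5 and Lgr6 fell and Lgr4 was not called. Lgr4, named after its values were seen, was at 122 and 105 CPM in the control lines and 147, 115 and 130 CPM in the SOX4KO lines (log2 fold change 0.21 with an SE of 0.18), and had 354, 555 and 528 UMIs in GR17, GR18 and GR19. Lgr6 was at 207 and 183 CPM in the control lines and at 83.8, 49.3 and 65.4 CPM in the SOX4KO lines (log2 fold change −1.55 with an SE of 0.23, and adjusted p = 0.0158 by edgeR). Lgr5, a marker of stem cells in several epithelia, was at 86.5 and 75.1 CPM in the control lines and at 14.6, 40.7 and 20.1 CPM in the SOX4KO lines (log2 fold change −1.71 with an SE of 0.36, and adjusted p = 0.0474 by edgeR). The groups of Rspo3, Lgr5 and Lgr6 did not overlap.

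In the single-cell libraries Rspo3 had 10 UMIs in GR17, 248 in GR18 and 192 in GR19, that is 1.30, 31.0 and 23.1 CPM. It was counted in both classes of SOX4KO cells, at 41.1 CPM in luminal-like and 25.8 CPM in other cells of GR18 and at 32.2 and 16.0 CPM in GR19. Lgr6 was lower in both SOX4KO libraries, with 94, 58 and 37 UMIs. Lgr5 had 11, 12 and 10 UMIs, which did not separate the libraries.

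The Frizzled receptors Fzd2 and Fzd3 fell in the bulk lines. Fzd3 was at 4.66 and 8.36 CPM in control and at 1.30, 2.16 and 1.20 CPM in SOX4KO lines (log2 fold change −2.10 with an SE of 0.49, and adjusted p = 0.0624 by edgeR), and had 78, 16 and 17 UMIs in GR17, GR18 and GR19. Fzd2 was at 22.8 and 43.0 CPM in control and at 14.9, 18.4 and 12.9 CPM in SOX4KO lines (log2 fold change −1.11 with an SE of 0.30, and adjusted p = 0.096 by edgeR), with log2 ratios of −0.42 and −0.72 in GR18 and GR19. Both calls were weak, since Fzd2 was called in 1 of the 5 fits that left out a line and Fzd3 in 2. Porcn, the enzyme that acylates Wnt ligands before secretion, rose by 1.13 on the log2 scale in bulk (SE 0.24, and adjusted p = 0.0492 by edgeR) from 28.7 and 19.3 CPM to 47.0, 62.3 and 48.4 CPM. It had 219, 259 and 240 UMIs in the single-cell libraries, where the intervals overlapped. Ccnd1, which encodes cyclin D1, rose by 1.12 (SE 0.22, and adjusted p = 0.0376 by edgeR), from 537 and 468 CPM to 1039, 943 and 1300.4 CPM, but was at 963 CPM in GR17, 785 in GR18 and 877 in GR19.

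The most highly counted ligand per kilobase in the control lines was Wnt5b, at 29.8 CPM per kb, with a log2 fold change of −0.23 (SE 0.26). In the single-cell libraries, where it was under the minimum of 20 CPM, Wnt5b had 32, 89 and 109 UMIs in GR17, GR18 and GR19, higher in both SOX4KO libraries by 1.23 and 1.46 on the log2 scale. The leading receptor was Ptk7 at 81.3 and the leading nuclear factor was Bcl9l at 25.5, with log2 fold changes of −0.12 and −0.16. None of these 3 genes was called (adjusted p from 0.724 to 0.799 in edgeR). Among secreted antagonists Sfrp1 led, and none of the 10 others on the list (among them Sfrp2, Frzb, Dkk1 and Notum) had enough counts to be tested. The feedback targets Sp5 and Ascl2 were likewise below the filter. Of the 31 other pathway genes with at least 20 CPM on average in the single-cell libraries, 0 were at least 2-fold higher and 0 lower in both SOX4KO libraries. These counts rest on the minimum, since Rspo3, higher in both, lay just under it with 18.5 CPM, as did Csnk1e, named after its values were seen, with 19.8 CPM and log2 ratios of −1.03 and −1.01.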

How the data were processed

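Bulk libraries came from 2 control and 3 SOX4KO organoid lines, and plate-based single-cell libraries from 1 control and 2 SOX4KO. The authors deposited raw counts, as reads per gene from HTSeq for bulk and as UMI counts per gene and well for single cells, without normalization. The submitters' processing notes name STAR, HTSeq and the builds NCBIM37 and mm9, and the kit was a directional one, but the strand setting of the counting is not given in the sources used here. Genes were matched by identifier to GENCODE M21 on GRCm38, which gave symbols and exon lengths. Of the overlapping genes listed none had over 9 reads.

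Bulk counts were filtered with filterByExpr, normalized by TMM and tested with the quasi-likelihood functions glmQLFit and glmQLFTest of edgeR 4.0.16 under R 4.3.3. Benjamini-Hochberg adjustment ran over 11682 genes, and calls were made at an adjusted p under 0.1. DESeq2 1.42.0 was an alternative. Wells with at least 1000 UMIs were kept (15, 15 and 22 left out) and doublets were not called. UMIs were summed per library, scaled to CPM and compared with 1 CPM added. Clusters used Seurat 5.3.0 (2000 variable genes, 10 principal components, 20 neighbours, resolution 0.5). Shares have binomial and CPM exact Poisson intervals at 95%. The edgeR fit and the 2-fold rule on summed UMIs were tried on simulated counts. These had the same dispersion for all genes in bulk, and counting error only in single cells. Clustering and the motif search were not simulated. The p-values of edgeR set the difference between the groups against the spread between lines, which is moderated over all genes tested.

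The 10 genes, the pathway list and the marker lists were chosen with earlier results of these data known. Named were all 10 genes, pathway genes called by edgeR or past 2-fold in both single-cell SOX4KO libraries, the leading gene of 4 roles, Sox4, and genes with r of at least 0.3. Other genes were named after their values were seen. Protein sequences were not used here.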

Additional observations from a re-analysis of the deposited data

Results flagged for a closer look

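For 2 genes whose bulk groups did not overlap, both single-cell SOX4KO libraries lay on the other side of the control library with counting intervals apart, and that difference was not tested. Other genes, such as Wnt4 (named after its values were seen), differed in sign between the assays with overlapping intervals. Tcf7 was higher in all 3 SOX4KO bulk lines than in both control lines (log2 fold change 0.78) and lower in both single-cell SOX4KO libraries (log2 ratios of −1.08 and −0.78 to GR17, with 90, 40 and 53 UMIs in GR17, GR18 and GR19). Ccnd1 was higher in all 3 SOX4KO bulk lines (log2 fold change 1.12) and lower in GR18 and GR19 (log2 ratios of −0.30 and −0.13). The difference in GR19 was small and depends on the total used for scaling. Mitochondrial genes and Rn45s took 15.1% and 6.0% of the UMIs of GR19 against 11.4% and 5.0% in GR17. Whether the Ccnd1 intervals stay apart with these left out of the total was not tested. The single-cell part rests on 1 control library in both cases.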

How the results depend on the processing

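With an adjusted p under 0.05 in place of 0.1, the bulk calls were 241 higher and 113 lower over all genes and 2 lower among the other pathway genes. With no filter on low counts they were 1008 higher and 678 lower over all genes, 7 higher among the pathway genes and 2 higher among the 10 genes (Sfrp1 and Tcf7). DESeq2 called 1 of the 10 genes higher (Sfrp1). When lines were left out one at a time, the calls over all genes ran from 30 to 624 higher and from 26 to 382 lower, those among pathway genes from 0 to 5 higher and from 0 to 4 lower, and those among the 10 genes from 0 to 1 higher. The low ends came without WT3, when 0 pathway genes were called by edgeR (3 higher and 2 lower at an unadjusted p under 0.05). Without WT1 there were 1 higher and 0 lower among pathway genes and 93 and 37 over all genes, without H7 2 lower and without H4 5 higher among pathway genes, and without M4 382 lower over all genes. Leaving out a control line leaves 1, which is assumed to vary like the SOX4KO lines. Wif1 was called lower in each of these fits. All 7 pathway genes called kept their direction in every bulk alternative, and 0 were called without WT3. Nkd2 in bulk moved to −0.55 without WT1 and to −0.12 without WT3.

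In single cells, genes past 2-fold over all genes were 71 higher with a pseudocount of 10 CPM, 54 higher and 8 lower with at least 50 CPM, and 41 to 71 lower and 157 to 172 higher with 1 SOX4KO library left out (71 lower without GR18, 41 without GR19). With mitochondrial genes and Rn45s left out of the total, 1 pathway gene was higher (Rspo3, which then passed the CPM minimum). Without GR18, the pathway genes past 2-fold lower ran to 1 (Tcf7l1) and the 10 genes to 2 (Nkd2 and Sostdc1), against 0 and 1 without GR19. With 20 principal components, 5.69% of control cells were luminal-like in place of 13.8% (7.05% at a resolution of 0.3), and the log2 ratio of Wif1 between luminal-like and other cells of GR17 moved from 1.88 to 3.57 (2.99 at that resolution). No paired analysis was possible because the lines are separate clones whose labels give no replicate numbers, and the numbers used here only name the lines.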

Other observations

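Among the other pathway genes, 2 that the naming rule did not cover were named after their values were seen. Wnt10a, a ligand of the canonical pathway, had 168 UMIs in GR17 against 12 in GR18 and 13 in GR19 (21.8, 1.50 and 1.57 CPM), and in GR17 all 168 lay outside the luminal-like cells. It was among the leading genes of cluster B, which held nearly only control cells. In bulk Wnt10a had too few counts to be tested, with 7 (WT1) and 5 (WT3) against 4 (H7), 10 (M4) and 4 (H4). The bulk groups overlapped, so the fall in the single-cell libraries was not seen there. Csnk1e, a kinase that phosphorylates Dishevelled, was at 30.3 CPM in GR17, 14.4 in GR18 and 14.6 in GR19, and in bulk its log2 fold change was −0.63 (adjusted p = 0.108 in edgeR), with all SOX4KO lines below both control lines.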
